A study of Mus musculus with 6 samples.

Results

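The Fc gamma receptors bind the constant (Fc) part of IgG antibodies and tie the antibody response to cells that engulf, kill or release mediators. Described here are 6 genes of the 31053 in the deposited count table. They were chosen by name, as genes whose products bind the Fc part of an antibody or are needed for that. No value entered this rule, but earlier results of these data were known when it was set. Fcgr1 encodes Fc gamma RI, the high-affinity receptor. Fcgr3 and Fcgr4 encode the activating receptors Fc gamma RIII and RIV, and Fcgr2b encodes Fc gamma RIIB, the inhibitory receptor. Fcer1g encodes the common gamma chain, the signaling partner of the activating receptors, and Fcgrt encodes the heavy chain of FcRn, the neonatal Fc receptor.

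The activating receptors carry no signaling motif of their own. They signal through the common gamma chain, whose tyrosines are phosphorylated by Src-family kinases and then recruit the kinase Syk. Fc gamma RIIB carries an inhibitory motif that recruits the phosphatase SHIP-1, encoded by Inpp5d, so the balance of activating and inhibitory receptors on a macrophage sets its threshold for immune complexes. In the mouse, NK cells are known for Fc gamma RIII and B cells for Fc gamma RIIB, whereas macrophages and monocytes can carry all 4 receptors. FcRn works inside the cell, where it pairs with beta-2 microglobulin and returns IgG from endosomes to the surface, which prolongs the life of antibodies in the circulation.

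The cells came from tumors of CT26, a mouse colorectal carcinoma line, grown in female Balb/c mice that were 5 to 6 weeks old when obtained. The labels list 6 samples in 3 groups of 2, treated with vehicle, a low dose or a high dose of an antibody that joins a PD-1 binding part to the GITR ligand. The doses are uncertain. The labels state 30 mg/kg for the high dose, and for the low dose 30 mg/kg under treatment and 10 mg/kg in the protocol. The paper names a different dose and an isotype control for this experiment. The antibody was a mouse surrogate on an IgG2a backbone whose Fc part was mutated to lack effector functions. Tumors were taken 5 days after treatment. Leukocytes were enriched from dissociated tumors with beads against CD45 and profiled by single-cell mRNA sequencing in droplets. A random tag on each captured molecule, the unique molecular identifier (UMI), lets its copies be counted as 1. The count table names 4 libraries, M1, M2, M5 and M6, and no source used here pairs these names with a sample or treatment. No value was therefore compared between treatments, no p-value is given, and the libraries are reported one by one or by their range. A difference between libraries may come from the treatment, the tumor or the handling of a library, and these cannot be told apart.

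The table held 33961 cells and 915317050 UMIs. The libraries held 7160 to 10294 cells each, with a median of 20266 and 21801 UMIs per cell in M2 and M1 and of 11399 and 12096 in M5 and M6. Every cell carried 1 of 12 deposited labels, each taken from the ImmGen reference profile that the cell correlated with best. The bead selection did not remove cells without CD45: 15687 cells were labelled Stroma, and Ptprc, which encodes CD45, stood at 7.47 CPM in them, against 463 to 1240 in the 9 other labels of 100 or more cells. CPM means the UMIs of a gene for every 1000000 UMIs of all cells of a label, and each transcript counts once whatever its length. Of all cells, 222 (0.654%) carried a barcode found in more than 1 library, 17 of them labelled Myeloid.

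Fcgr2b, Fcgr4, Fcgr3 and Fcer1g lie in this order within 275749 bases of chromosome 1 (build GRCm38). Fcgr2b spans chr1:170958617-170976547 on the minus strand, and Fcgr4 follows after 42372 bases at chr1:171018920-171029761 on the plus strand. Fcgr3 starts 21412 bases further at chr1:171051174-171064935, and Fcer1g lies 164636 bases beyond it at chr1:171229572-171234365, both on the minus strand. Fcgr1 lies apart at chr3:96282909-96293969 and Fcgrt at chr7:45092990-45103851, both on the minus strand. Fcgr2b and Fcgrt are each overlapped on the other strand by an annotated antisense gene, Gm38204 and Gm45669, and Fcgr3 and Fcgr4 each hold a small RNA gene on their own strand. Fcgr2b and Fcgr3 resemble each other in sequence. Of the 31-base words in the last 500 bases of their coding transcripts, 5.10% of those of Fcgr2b also occurred in Fcgr3 and 0.521% of those of Fcgr3 in Fcgr2b, so reads from that stretch may be hard to place. Of such words of Fcgr4, 2.13% occurred in genes outside the members, and of those of Fcgr1, Fcer1g and Fcgrt 0% occurred in another gene.

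The promoters of the activating receptors shared a short word. Each promoter is the 300 bases from 250 before to 50 after the start of the gene in RefSeq on GRCm38.p6, and all 6 members matched, with a pair of start sites for Fcgr3. These RefSeq starts of Fcgr3 lie inside the gene span given above and not at its end. The word GAGGAA, which holds the GGAA core bound by ETS-family factors such as PU.1, was chosen after the sequences had been seen and was searched on both strands. It was present in the windows of Fcgr1, Fcgr3 and Fcgr4 and not in those of Fcgr2b, Fcer1g and Fcgrt. Of all 32817 promoters, 9278 (28.3%) held it. The capitals mark the match as it reads on the strand of the gene, and the sequences are shown because all 3 matches lie shortly before a start site.
Fcgr1, chr3:96294007-96294036, minus strand: atggcaacttccTTCCTCttttctaatctt
Fcgr3, chr1:171059395-171059424, minus strand: agagagtccatttccTTCCTCtttttgtag
Fcgr4, chr1:171018892-171018921, plus strand: aaggctatttacTTCCTCtcttctagtcaa
The first base of the match stood 55 bases before the start in Fcgr1, 22 in Fcgr4, and 15 or 6 in Fcgr3, depending on the start site. Around it, Fcgr1 and Fcgr3 shared the 14 bases TTCCTTCCTCTTTT, which occurred in 5 of the 32817 promoters (0.0152%), from 4 genes. Fcgr1 and both starts of Fcgr3 are among these. The run was picked as the longest that Fcgr1 and Fcgr3 share, so the count is no test of its rarity. A match is a description of the letters and not evidence that a factor binds there.

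The 4 receptors and Fcer1g were highest in cells labelled Myeloid, and Fcgrt in cells labelled DC (dendritic cells). Myeloid held 5 of the 6 members at their highest level in each of the 4 libraries. Of the 8144 genes with at least 20 CPM in some label of 100 or more cells, 5.78% were highest in Myeloid in every library. The label held 2680 cells, yet 69.0% of all Fcgr1 UMIs, 69.2% of those of Fcgr2b, 55.9% of Fcgr3 and 66.4% of Fcgr4. For Fcer1g its share was 35.0%, with a further 31.4% in ILC and 20.3% in NK cells. Of all Fcgrt UMIs, 86.1% lay in Stroma and 6.71% in Myeloid. In such sums, fewer cells with a transcript and less transcript per cell cannot be told apart, and the shares of cells with a UMI given below depend on both as well.

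**Figure D1:**
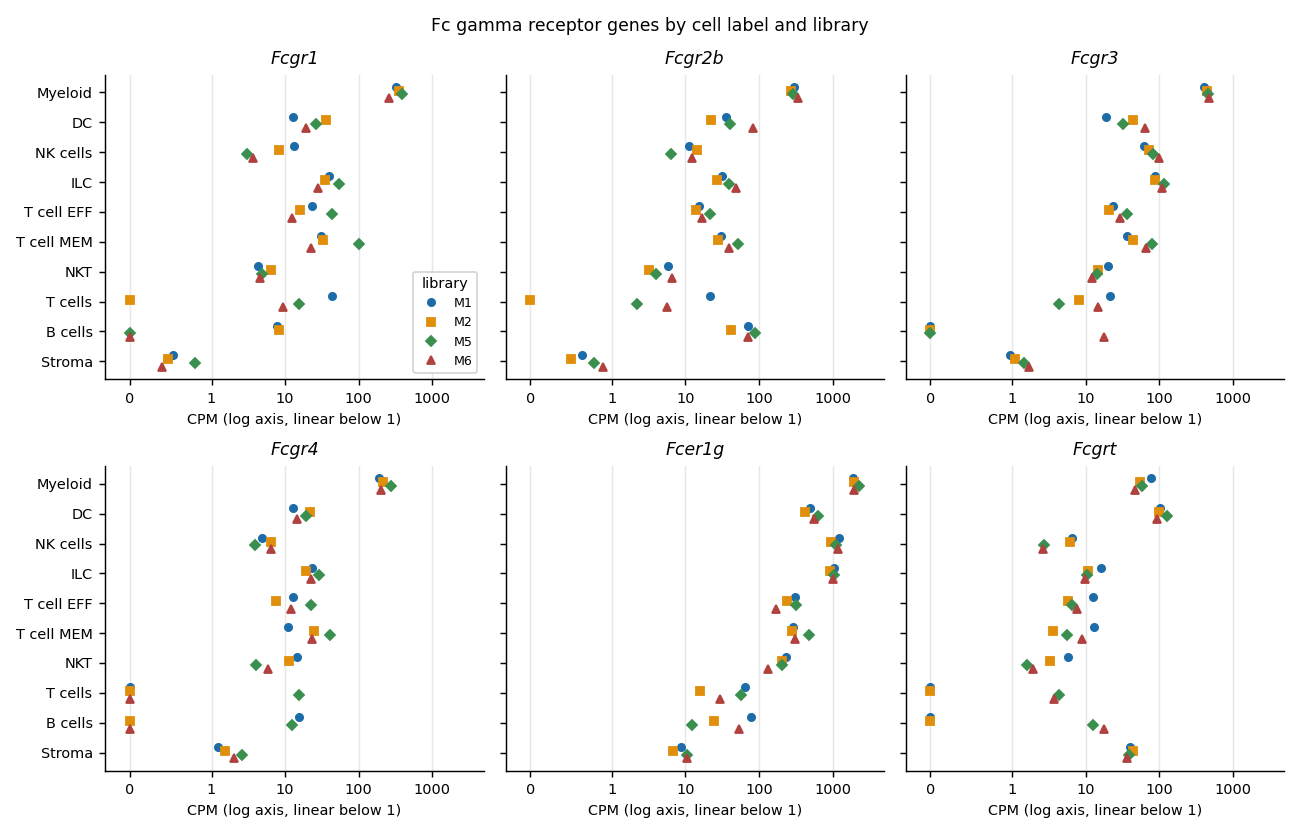
Level of each gene in CPM (x axis, logarithmic above 1 and linear below it) in the 10 labels of 100 or more cells (y axis), with 1 point per library. In the panels of the 4 receptors and Fcer1g the Myeloid points lie furthest to the right in every library; in the Fcgrt panel the DC points do, and Stroma, lowest for the other 5 genes when libraries are pooled, is near Myeloid.

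Fcgr1 had 322, 348, 388 and 259 CPM in the Myeloid cells of M1, M2, M5 and M6. M5 was highest and M6 lowest, and all 4 lay above every library of every other label of 100 or more cells. The pooled level, 321 CPM, was 5.63-fold the next one, 57.0 in T cell MEM (memory T cells). That second level rested on M5, where it was 101.01 CPM, against 22.2 to 32.6 in the other 3 libraries and 25.7 without M5. ILC followed with 39.5 CPM (27.7 to 54.6 over the libraries), T cell EFF (effector T cells) with 26.1 (12.4 to 43.4) and DC with 24.4 (12.7 to 36.4), and the ranges of these neighbours overlapped. Without M5 the level in T cell EFF was 17.3 CPM. Where each cell counted the same whatever its depth, the levels were 12.5 CPM in T cell EFF and 19.3 in ILC, so deep cells carried much of the Fcgr1 in these labels. NK cells had 6.27 CPM and Stroma 0.523.

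Fcgr2b had 296, 275, 290 and 344 CPM in the Myeloid cells of M1, M2, M5 and M6. M6 was highest in these sums, the library that was lowest for Fcgr1. Shares of Myeloid cells with an Fcgr2b UMI, taken at equal depth as described below, gave another order. They were 37.5%, 32.7%, 32.7% and 33.8% in M1, M2, M5 and M6, with M1 highest. For Fcgr1 the share was again lowest in M6, at 28.3%. After Myeloid, B cells came next with 65.5 CPM of Fcgr2b, from 29 UMIs, and the Myeloid level was 4.69-fold higher. The B cell values were 70.0 CPM in M1, 41.1 in M2, 87.2 in M5 and 71.1 CPM in M6, all below Myeloid. DC had 43.6 CPM, from 21.9 in M2 to 82.3 in M6, and did not stand apart from B cells, T cell MEM (42.1) or ILC (38.0). NK cells had 10.6 CPM and T cell EFF 17.3.

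Fcgr3 had the highest level of the 4 receptors in Myeloid, with 402 CPM in M1, 443 in M2, 463 in M5 and 478 CPM in M6. It was 4.44-fold the level in ILC, which came next with 101.5 CPM (86.2 to 115). NK cells had 80.6 CPM, with 61.8, 71.5, 83.1 and 97.8 in M1, M2, M5 and M6. The ranges of ILC and NK cells overlapped, as did those of NK cells and T cell MEM (65.7 CPM). The NK cell level was 2.81-fold that of T cell EFF (28.6 CPM), and it was higher in every library, by 2.27-fold to 3.47-fold. NKT had 14.6 CPM. In B cells there were 2 Fcgr3 UMIs, both in M6, where the level was 17.8 CPM, and none in the other 3 libraries.

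Fcgr4 had 189, 211, 277 and 203 CPM in the Myeloid cells of M1, M2, M5 and M6, with M5 the highest. It was the receptor with the widest step to the next label, 7.42-fold, to 29.5 CPM in T cell MEM (11.0 to 41.4). ILC had 23.9 CPM, DC 17.3 and T cell EFF 14.6, and their ranges overlapped. NK cells had 5.31 CPM (3.88 to 6.48), less than ILC in every library. Stroma, at 1.63 CPM, was lower than NK cells in every library.

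Fcer1g had far more UMIs than the receptors, 218900 in all against 12543 to 30596 for each receptor. In Myeloid it had 1885 CPM in M1, 1981 in M2, 2261 in M5 and 1951 CPM in M6. NK cells had 1212, 962, 1122 and 1187 CPM in the same order, and ILC had 932 to 1058. Myeloid lay above NK cells in every library, by 1.55-fold to 2.06-fold, and NK cells and ILC overlapped. Below them came DC with 518 CPM, T cell MEM with 372, T cell EFF with 266 and NKT with 183, and B cells and the label T cells had 45.2 and 40.2. In T cell EFF the level was 305 CPM in M1, 240 in M2 and 319 in M5 and was lowest in M6, at 169. Fcgr3 and Fcer1g were the members that were 2-fold or more higher in NK cells than in T cell EFF in each library, which held for 2.10% of the 8144 genes.

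Fcgrt followed another order. DC had 103 CPM in M1, 98.1 in M2, 128 in M5 and 93.5 CPM in M6. Myeloid had 76.5, 53.7, 58.6 and 46.0 CPM, and Stroma 39.3, 44.5, 38.3 and 36.6. The ranges of these 3 labels did not overlap, and DC was 1.83-fold Myeloid and Myeloid 1.42-fold Stroma in the pooled values. The step from Myeloid to Stroma rested on how deep cells weigh in the sums: in sums of cells reduced to 2000 UMIs Fcgrt had 52.4 CPM in both labels, and with each cell counting the same it had 56.2 CPM in Myeloid and 51.4 in Stroma. DC stayed highest, at 104 and 109 CPM. ILC came next with 11.7 CPM, and the remaining labels of 100 or more cells had 2.68 to 8.03. The level in lymphocytes was thus at or below 17.8 CPM in every label and library of 100 or more cells in all. The smallest labels, T cell Naive with 55 cells and Stem cells with 37, held 0 to 8 UMIs of each receptor and of Fcgrt, and 20 and 124 UMIs of Fcer1g.

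Cells with a UMI were also counted. Since deeper cells show more genes, every cell was reduced at random to 2000 UMIs. This excluded 696 cells with fewer UMIs, 133 of them Myeloid, 180 NK cells, 12 B cells, 17 DC and 45 Stroma. Of 2547 Myeloid cells, 91.8% then had an Fcer1g UMI, 51.1% an Fcgr3 UMI, 36.3% Fcgr1, 34.1% Fcgr2b, 32.1% Fcgr4 and 8.52% Fcgrt. Stroma, in which the receptors were taken as background, gave 0.192% for Fcgr1, 0.0639% for Fcgr2b, 0.326% for Fcgr3, 0.288% for Fcgr4 and 1.80% for Fcer1g. Whether Stroma cells lack the receptors was not tested. The median depth before this reduction was 8027 UMIs in Myeloid and 40692 in Stroma. Before it, 59.9% of Myeloid and 2.10% of Stroma cells had an Fcgr1 UMI, and 79.0% of Myeloid cells an Fcgr3 UMI. At 1000 UMIs the Myeloid shares were 22.6% for Fcgr1 and 33.1% for Fcgr3, and at 4000 UMIs that of Fcgr1 was 55.3%.

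Of 4218 NK cells, 85.6% had an Fcer1g UMI and 14.2% an Fcgr3 UMI (exact 95% binomial interval 13.1 to 15.2, which like every interval here covers counting error only). The Fcgr3 share was 11.7%, 13.5%, 14.1% and 16.7% in M1, M2, M5 and M6. In T cell EFF 2.99% had an Fcgr3 UMI, and the intervals of the pooled shares did not overlap. The share of NK cells with Fcgr1 was 0.996%, with Fcgr4 1.04% and with Fcgr2b 2.11%. The Stroma shares are no equal background for these, since the reduction removes more UMIs from the deeper Stroma cells. Before it, 2.59% of NK cells and 2.10% of Stroma cells had an Fcgr1 UMI, and 5.41% and 2.55% an Fcgr2b UMI. Without the reduction, 35.5% of NK cells had an Fcgr3 UMI, at a median depth of 5397 UMIs.

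Of 112 B cells, 14.3% had an Fcgr2b UMI (interval 8.39 to 22.2), and none had an Fcgr3 UMI, which by a limit of 3 counts allows a share of cells with a UMI at this depth of up to 2.68%. Without the reduction 1.61% of B cells had one. The B cell share with Fcgr2b was 18.2%, 10.3%, 6.25% and 17.6% in M1, M2, M5 and M6. It moved with the depth chosen, to 5.65% at 1000 UMIs, 7.14% of the deeper cells at 4000 and 21.0% without the reduction. B cells also carried macrophage transcripts: 53.6% had a UMI of C1qa, C1qb, C1qc, Lyz2 or Apoe, and Fcgr2b was found in 18.3% of those 60 cells and in 9.62% of the other 52 (3.20 to 21.0). Their part in the B cell level was not tested. Fcgrt UMIs were found in 15.4% of 539 DC (interval 12.5 to 18.7; 9.89% at 1000 UMIs, 28.6% at 4000 and 46.6% at full depth) and in 9.38% of 15642 Stroma cells, against 8.52% of Myeloid and 0.782% of NK cells, and the Stroma share of Fcgrt lay far above the Stroma shares of the receptors. The bead selection can set how many Stroma cells, and which, were captured, and its part in these shares was not tested.

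The receptor UMIs of Myeloid cells were spread over all 4 genes. Of 49303 receptor UMIs, 34.7% were of Fcgr3, 24.8% of Fcgr1, 23.7% of the inhibitory Fcgr2b and 16.9% of Fcgr4. The genes may be captured with different efficiency, which was not corrected, so these shares are best compared between labels. There were 3.23 activating receptor UMIs (Fcgr1, Fcgr3 and Fcgr4) for each inhibitory UMI, and the ratio was 3.08, 3.64, 3.89 and 2.74 in M1, M2, M5 and M6. M6 was lowest and M5 highest in these sums, in which deep cells weigh more. Their intervals, 2.64 to 2.83 and 3.72 to 4.06, lay apart but cover counting error only. The order depended on the cells taken. After reduction to equal depth, the C1q-high cells described below had 3.26, 4.74, 4.15 and 3.46, with M1 lowest and M2 highest. The C1q-zero cells had 3.49, 3.71, 4.30 and 3.27, with M6 lowest and M5 highest. The Myeloid cells between these groups had 2.98, 4.66, 3.18 and 3.54.

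In NK cells 78.4% of 4064 receptor UMIs were of Fcgr3, with a range of 67.9% in M1 to 86.3% in M5, above the highest Myeloid library at 37.2%. Their ratio of activating to inhibitory UMIs was 8.72 (5.92 to 14.2 over the libraries). In ILC the Fcgr3 share was 50.03% and the ratio 4.34. These values include the ILC with macrophage transcripts described below. In thinned ILC without them Fcgr3 had 72.3 CPM, against 5.41 for Fcgr1, 6.92 for Fcgr2b and 3.76 for Fcgr4. In thinned ILC with them the values were 119, 59.0, 58.2 and 36.9 CPM in the same order. B cells were the reverse case, with 80.6% of their 36 receptor UMIs from Fcgr2b (75.0% to 87.5% over the libraries) and a ratio of 0.241. In DC 34.8% of 1024 receptor UMIs were of Fcgr2b, and the ratio was 1.88, but the libraries spread from 1.19 in M6 to 4.68 in M2. In T cell EFF the receptor UMIs divided much as in Myeloid, with 30.1% Fcgr1, 20.01% Fcgr2b, 33.0% Fcgr3 and 16.9% Fcgr4. Stroma differed, with 40.8% of its 2759 receptor UMIs from Fcgr4 (36.2% to 46.2% over the libraries), against 16.9% in Myeloid. The source of these UMIs was not tested.

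**Figure D2:**
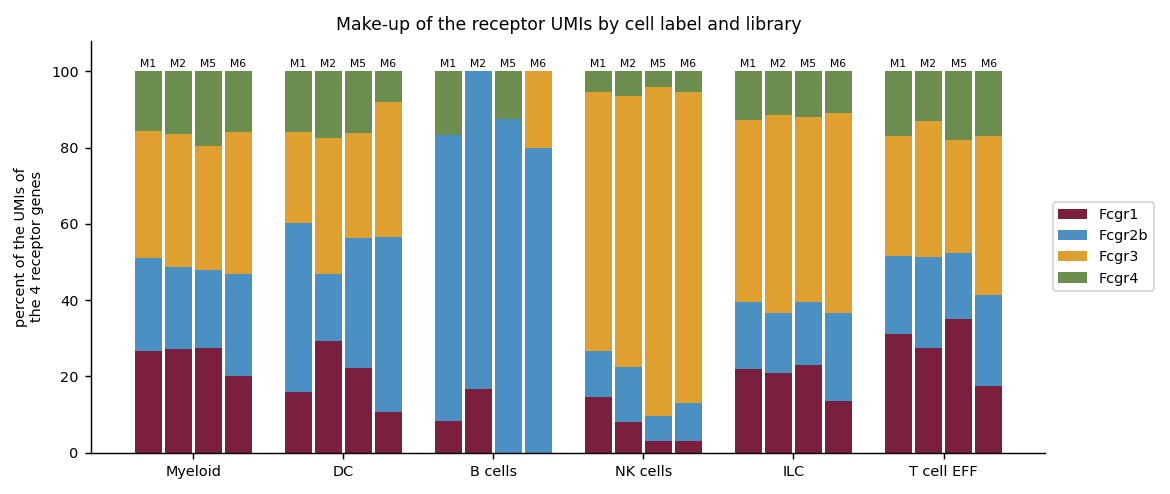
Share of each receptor gene in the summed UMIs of Fcgr1, Fcgr2b, Fcgr3 and Fcgr4 (y axis, percent), with 1 stacked bar per library in 6 labels. Fcgr3 makes up most of the bar in every library of NK cells and Fcgr2b in every library of B cells, where a bar stands for 6 to 12 UMIs; the Myeloid bars hold all 4 genes.

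The Myeloid label held cells of several kinds, which were separated on cells reduced to 2000 UMIs by transcripts other than the members. C1q-high cells had 3 or more UMIs of C1qa, C1qb and C1qc, the complement genes of tissue macrophages (605 cells), and C1q-zero cells had none (1622 cells). Among the cells without C1q, those with 2 or more UMIs of Ly6c2 and Ccr2, monocyte genes, formed a group of 527, with Plac8, another monocyte gene, at 2506 CPM. A group of 370 cells had 5 or more UMIs of S100a8 and S100a9, and in it the neutrophil genes Csf3r and Cxcr2 had 474 and 209 CPM, against 47.1 and 14.0 in C1q-high cells. A group of 297 cells had 3 or more UMIs of the proteases Cpa3, Mcpt4, Tpsb2, Cma1 and Mcpt8. There Fcer1a and Ms4a2, which encode the alpha and beta chains of the IgE receptor, had 1414 and 468 CPM, Kit had 285, and the macrophage gene Csf1r 1.68. Mcpt8, a basophil gene, had 157 CPM. The last 3 groups shared at most 39 cells with one another, and 57 C1q-high cells were in the S100a8/S100a9 group and 8 in the protease group.

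Fcgr1 was highest in the Ly6c2/Ccr2 group, with 600 CPM in M1, 633 in M2, 690 in M5 and 478 CPM in M6. C1q-high cells had 405, 382, 536 and 320 CPM, lower in each library, by 1.29-fold to 1.66-fold. The S100a8/S100a9 group had 217, 159, 145 and 126 CPM, below both groups in every library. Between the Ly6c2/Ccr2 and S100a8/S100a9 groups the pooled fold was 4.05 (2.77 to 4.77 over the libraries). Fcgr1 was the member that was 2-fold or more higher there in every library, as were 2.49% of the 5673 genes with at least 20 CPM in Myeloid.

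Fcgr3 was ordered the other way. The S100a8/S100a9 group had 726 CPM in M1, 659 in M2, 763 in M5 and 750 CPM in M6, against 500, 463, 448 and 609 in the Ly6c2/Ccr2 group, and the ranges did not overlap. In the S100a8/S100a9 group 50.5% of receptor UMIs were of Fcgr3 and 10.2% of Fcgr1, and in the Ly6c2/Ccr2 group 28.7% and 34.3%. Fcgr2b was 1.501-fold higher in the Ly6c2/Ccr2 group than in the S100a8/S100a9 group, and higher in every library, by 1.16-fold to 1.85-fold. Fcgr4 differed between these groups in no constant direction, with 297 and 335 CPM pooled and a higher value in the Ly6c2/Ccr2 group in M1 and M2 only.

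Between C1q-high and C1q-zero cells the receptors differed little. Fcgr1 was 1.31-fold higher in C1q-high cells (1.08 to 1.47 over the libraries), Fcgr2b 1.24-fold (1.04 to 1.46) and Fcgr4 1.35-fold (1.34 to 1.47). Fcgr3 was 1.27-fold higher when pooled and 0.920-fold in M6, and Fcer1g was 0.965-fold, higher in 2 libraries and lower in 2. Fcgrt was 2.44-fold higher in C1q-high cells, with 128, 97.7, 92.0 and 36.9 CPM in M1, M2, M5 and M6 against 52.1, 54.5, 30.9 and 27.4. Fcgr1, Fcgr2b, Fcgr4 and Fcgrt were thus higher in C1q-high cells in all 4 libraries, as were 20.7% of the 5673 genes. Against the 640 C1q-zero cells outside the other groups, some of these differences were lost. Fcgr1 was then 1.53-fold higher in C1q-high cells (1.23 to 1.87 over the libraries), Fcgr3 1.35-fold (1.02 to 1.72) and Fcgr4 1.30-fold (1.07 to 1.61). Fcgr2b was 1.03-fold, lower in M2 and M6, Fcgrt 1.41-fold, lower in M2, and Fcer1g 1.14-fold, lower in M6.

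The protease group had Fcer1g at a high level and far fewer receptor UMIs than the other groups. Fcer1g stood at 2345, 2472, 2774 and 2747 CPM in M1, M2, M5 and M6, above the C1q-high cells of the same library each time, by 1.03-fold to 1.44-fold. Fcgr1 had 20.2 CPM there against 408 in C1q-high cells, Fcgr4 20.2 against 315, Fcgr2b 47.1 against 333 and Fcgr3 130 against 553, and each was lower in every library. There were 12.0 Fcer1g UMIs for each receptor UMI in the protease group (9.37 to 21.7 over the libraries), and 1.41 to 1.88 in the C1q-high, C1q-zero, Ly6c2/Ccr2 and S100a8/S100a9 groups. Fcgr3 supplied 77 of its 129 receptor UMIs (59.7%).

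**Figure D3:**
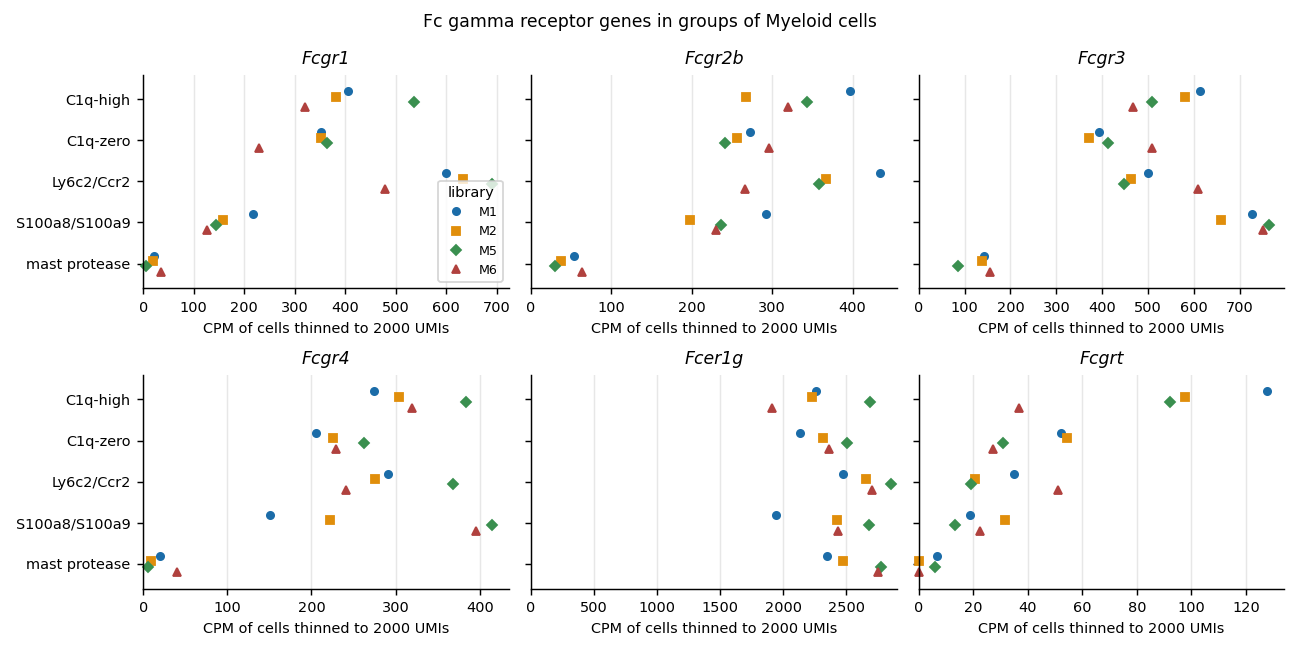
Level of each gene in CPM (x axis) in 5 groups of Myeloid cells reduced to 2000 UMIs (y axis), with 1 point per library. Fcgr1 is highest in the Ly6c2/Ccr2 group and Fcgr3 in the S100a8/S100a9 group; in the protease group the 4 receptors lie near the left edge, whereas Fcer1g lies between 2345 and 2774 CPM.

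Single Myeloid cells often showed more than 1 receptor. At 2000 UMIs, 22.5% of Myeloid cells had no receptor gene with a UMI, 29.4% had 1, 25.4% had 2, 17.5% had 3 and 5.22% had all 4. Of NK cells, 82.8% had none and 16.3% had 1. In Myeloid cells each of the 6 receptor pairs was found together more often than the product of the single shares, by 1.18-fold for Fcgr1 with Fcgr3 to 1.31-fold for Fcgr2b with Fcgr3. Without the protease group, whose cells had few receptor UMIs, the ratios were 1.10 to 1.24, and they were above 1 in each library. Pairs of other genes were not examined, so these ratios cannot show a trait particular to the receptors. Of those 2250 cells, 32.1% had UMIs of an activating receptor and of Fcgr2b, 46.3% of an activating receptor only and 5.42% of Fcgr2b only. The share with both kinds was 35.7%, 31.5%, 32.0% and 30.2% in M1, M2, M5 and M6.

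Lymphocytes carried macrophage transcripts. The 8 macrophage markers (C1qa, C1qb, C1qc, Lyz2, Apoe, Adgre1, Csf1r and Mrc1) summed to 8789 to 11287 CPM in Myeloid over the libraries, 788 to 1296 in ILC, 568 to 1103 in T cell MEM, 607 to 838 in DC, 401 to 840 in T cell EFF, 132 to 420 in NK cells and 50.5 to 144 in Stroma. For each 100 UMIs of Lyz2, a gene of macrophages and other myeloid cells, there were 4.84 Fcgr1 UMIs in Myeloid, 4.70 in NK cells, 4.56 in DC, 6.98 in T cell EFF, 7.13 in ILC and 11.6 in T cell MEM. The last value rested on M5, and without that library it was 6.52. For Fcgr3 the same ratio was 6.79 in Myeloid, 7.68 in T cell EFF, 18.3 in ILC and 60.4 in NK cells. By library the ratio for Fcgr1 was 6.45, 4.86, 2.78 and 4.26 in NK cells of M1, M2, M5 and M6 and 5.20, 5.18, 5.35 and 4.02 in Myeloid, and the ranges overlapped. Whether free RNA or doublets brought the macrophage transcripts was not tested.

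Cells with no UMI of C1qa, C1qb, C1qc, Lyz2 or Apoe were then taken alone. These were 3309 NK cells, 3325 ILC and 2648 T cell EFF, and 21.6%, 26.4% and 25.3% of the cells of these labels had such a UMI and were set apart. Fcgr1 had 1.51 CPM in NK cells without macrophage UMIs and 22.6 in NK cells with them, 5.41 and 59.0 in ILC, and 3.40 and 39.0 in T cell EFF. Chosen and measured at full depth, the ILC without macrophage UMIs had 1.53 CPM. In T cell MEM the step was smaller, with 10.9 CPM without and 45.1 with macrophage UMIs. That was 4.12-fold, from 2.14-fold in M5 to 12.7-fold in M6 where both groups had a UMI. In NK cells, ILC and T cell EFF the cells without macrophage UMIs were lower in each library. In T cell EFF the same held for Fcgr3, with 6.61 CPM without and 46.8 with macrophage UMIs, and for Fcgr2b, with 2.83 and 20.1. Fcgr4 had 1.51 and 22.3 CPM there. In NK cells Fcgr2b had 9.07 CPM without and 23.1 with macrophage UMIs, and whether the former exceeds background was not tested.

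Fcgr3 was also found in NK cells without macrophage UMIs. It had 59.9 CPM in M1, 71.5 in M2, 77.8 in M5 and 100.8 CPM in M6, and 79.3 pooled, against 102 in NK cells with macrophage UMIs, 1.29-fold higher (0.966-fold to 1.66-fold over the libraries). M1 was lowest and M6 highest, in the order also seen over all NK cells. In ILC without macrophage UMIs Fcgr3 had 72.3 CPM (57.4 to 81.3). The NK cells without macrophage UMIs had an Fcgr3 UMI in 13.6% of cells (interval 12.5 to 14.8), and the T cell EFF without them in 1.28% (0.891 to 1.79). Fcer1g had 1331 CPM in these NK cells, 1079 in these ILC and 183 in these T cell EFF.

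**Figure D4:**
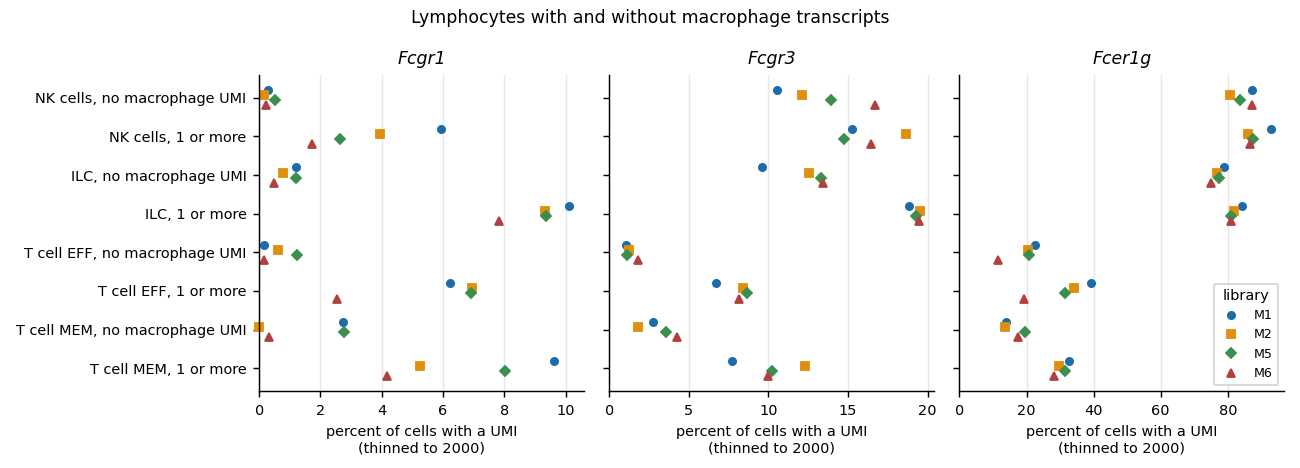
Percent of cells with a UMI of Fcgr1, Fcgr3 or Fcer1g (x axis) after reduction to 2000 UMIs, in 4 lymphocyte labels split by whether a cell had a UMI of C1qa, C1qb, C1qc, Lyz2 or Apoe (y axis), with 1 point per library. Fcgr1 is seen in 0% to 2.76% of cells without such a UMI; Fcgr3 and Fcer1g stay high in NK cells and ILC without one.

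ILC without macrophage UMIs were split by a UMI of Ncr1 or Klrb1c, receptors of NK cells. Fcer1g had 1283, 1089, 1184 and 1224 CPM in M1, M2, M5 and M6 in the 2124 cells with such a UMI and 865, 880, 923 and 823 in the 1201 cells without, and the ranges did not overlap. Fcgr3 had 60.0, 69.1, 73.6 and 74.4 CPM with and 53.2, 62.2, 97.0 and 86.1 without, and these ranges overlapped. No UMI at this depth does not show that a cell lacks these transcripts. The 888 ILC with a CD3 UMI had 51.2 CPM of Fcgr3 and 871 of Fcer1g, and the 2437 without had 80.0 and 1155.

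Fcer1g was also found in T cells. In T cell EFF without macrophage UMIs, 18.9% of cells had an Fcer1g UMI (interval 17.4 to 20.5), with 22.5%, 20.5%, 20.8% and 11.5% in M1, M2, M5 and M6. The shares for Fcgr1, Fcgr2b and Fcgr4 in the same cells were 0.604%, 0.566% and 0.302%. Of all cells in the T cell labels with a CD3 UMI, no macrophage UMI and a UMI of Cd8a or Cd8b1, 2676 in number, 19.7% had an Fcer1g UMI. M6 was lowest here too, with 12.4% against 21.6% to 22.1% in the other libraries. Of the 191 such cells with Cd4 and neither Cd8 chain nor Foxp3, 9.42% had one (interval 5.68 to 14.5), and of the 82 with Cd4 and Foxp3, 8.54% (3.50 to 16.8). Pooled, Fcer1g had 193 CPM in the Cd8 cells and 62.8 in the Cd4 cells without Foxp3, and the former were higher in every library, from 1.30-fold in M1 to 4.05-fold in M5. In M1 and M2 the Cd4 cells without Foxp3 numbered 20 and 19. Their pooled level had an interval of 40.3 to 93.5 CPM, and the Cd4 cells with Foxp3 had 42.7 CPM. All B cells at full depth had 45.2 CPM, and whether Fcer1g in the Cd4 cells exceeds background was not tested. The Cd8 cells without a UMI of Ncr1 or Klrb1c, 2608 in number, still had Fcer1g in 19.4%, and the 68 with one in 32.4% (21.5 to 44.8). Tyrobp, the adaptor that NK cells use beside Fcer1g, had 53.8 CPM in the Cd8 cells.

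Fcgrt in Stroma lay mostly in cells with fibroblast transcripts. The Stroma cells were split by their UMIs of Col1a1, Col1a2, Col3a1 and Dcn after reduction to 2000 UMIs. The 7608 cells with 2 or more had 83.3, 89.5, 76.1 and 68.4 CPM of Fcgrt in M1, M2, M5 and M6. The 4592 cells with none had 20.3, 23.5, 15.4 and 19.7 CPM, and the ranges did not overlap. The fold was 4.03 (3.47 to 4.93 over the libraries), whereas B2m, the partner of FcRn, was 1.44-fold higher. Of the 5323 genes with at least 20 CPM in Stroma, 1.37% were 2-fold or more higher in every library, and Fcgrt was the only member among those 5323. The share of cells with an Fcgrt UMI was 14.5% (13.8 to 15.3) and 3.81% (3.28 to 4.41). Pecam1, an endothelial gene, was low in both, at 1.77 and 10.2 CPM, and which cells had none of the 4 transcripts at this depth was not tested. Whether CT26 carcinoma cells were among the cells labelled Stroma, in either group, was not tested.

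The DC were grouped by subset genes, and 276 of the 539 fell in none of the groups. Those 276 had 76.1 CPM of Fcgrt (59.2 to 103 over the libraries) and 623 of Fcer1g. The 49 DC with a UMI of Cd209a, a gene of monocyte-like and type 2 DC, and none of Xcr1 or Clec9a had 306 CPM (interval 207 to 437). They numbered 11 to 15 in a library, where the values were 333, 273, 250 and 364 CPM in M1, M2, M5 and M6. The 129 DC with Xcr1 or Clec9a, genes of cross-presenting DC, and no Cd209a had 132 CPM (91.3 to 184), with 83.3, 136, 183 and 120. The libraries of these groups did not overlap. The 96 DC with 3 or more UMIs of Ccr7 and Fscn1, genes of mature DC, had 41.7 CPM (17.99 to 82.1) from 8 UMIs, none of them in M2. Some of these 96 DC were also in another of the groups, since this group was formed without regard to the others. Fcer1g had 1163 CPM in the Cd209a group, 322 in the Xcr1/Clec9a group and 292 in the Ccr7/Fscn1 group. The receptors were scarce in all 3 groups, with at most 10 UMIs of each.

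**Figure D5:**
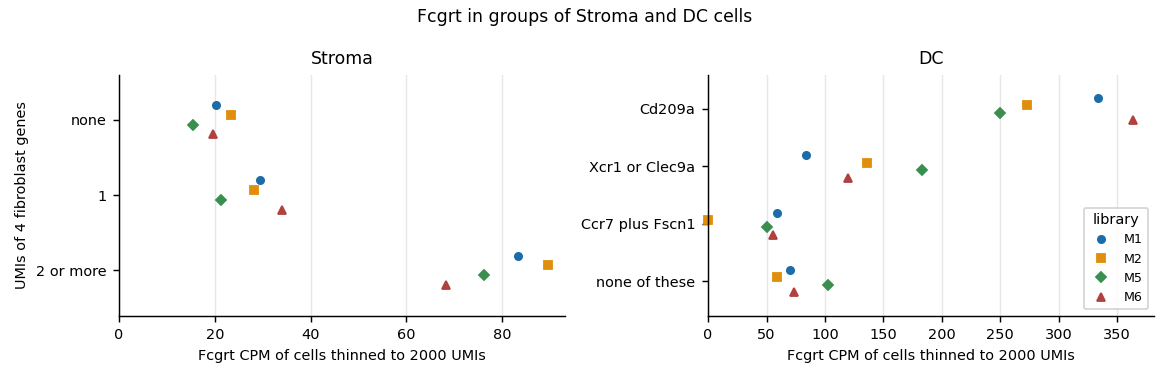
Fcgrt in CPM (x axis) of cells reduced to 2000 UMIs, for Stroma cells by their UMIs of Col1a1, Col1a2, Col3a1 and Dcn (left) and for DC by subset transcripts (right), with 1 point per library. Stroma cells with 2 or more such UMIs lie at 68.4 to 89.5 CPM and those with none at 15.4 to 23.5; DC with Cd209a lie at 250 to 364 CPM.

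Of 40 other genes of Fc receptor signaling, 30 had at least 20 CPM in some label of 100 or more cells. In every library 8 of the 30 (26.7%) were highest in B cells, 5 (16.7%) in Myeloid, 3 in NK cells and 1 in the label T cells, and 13 had no constant label. Of the 8 in B cells, 4 were other Fc-binding or Fc receptor-like genes, 3 belonged to the activating signal and 1 to the inhibitory signal. The B cell share thus depends on which genes were listed. Of all 8144 genes, 4.17% were highest in B cells in every library, 5.78% in Myeloid, 1.69% in NK cells and 1.40% in the label T cells. The signaling partners of the activating receptors did not all follow the receptors. Syk was highest in B cells, at 269 CPM, with 107 in Myeloid and 29.7 in NK cells. Inpp5d, the phosphatase used by Fc gamma RIIB, was also highest in B cells, at 196 CPM, with 98.1 in NK cells and 72.0 in Myeloid. Cd247, the zeta chain that can pair with the common gamma chain, had 167 CPM in the label T cells, 59.7 in NK cells and 25.4 in Myeloid.

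Other receptors that use the common gamma chain were found in labels rich in Fcer1g. Ncr1, which encodes the NK receptor NKp46, had 450 CPM in NK cells but was not highest there in every library, and the lectins Clec4e and Clec4n had 429 and 404 in Myeloid. Fcer1a had 58.7 CPM in Myeloid, where the protease group described above carried it. The Fc receptor-like and IgM or IgE receptors Fcmr, Fcrla and Fcer2a were highest in B cells in every library, with 499, 303 and 158 CPM. B2m had 1558 CPM in B cells and 3383 in NKT, the labels of 100 or more cells where it was lowest and highest, and NKT was the lowest of them for Fcgrt.

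Each member was also compared with all 8144 genes by Pearson's r of log2(CPM + 1) over 38 sums of at least 20 cells, 1 for each label and library. These sums share libraries and depth, and the values are a description. Fcer1g was most like Tyrobp (r = 0.95). Fcgr1 was most like Ccl12, a chemokine, Tlr2, a receptor for bacterial lipopeptides, and C3ar1, the receptor for complement C3a (0.94, 0.94 and 0.93). Cybb and Pira2 were among the genes most like Fcgr2b (0.92 and 0.91). Fcgr3 was most like the cytokine gene Osm, Adam8 and Clec4d (0.94, 0.92 and 0.91), and Fcgr4 like Pilra, Gda and C3ar1 (0.92, 0.91 and 0.91). Fcgrt was most like Sowahc, Cadm1 and Uck2 (0.91, 0.91 and 0.90). Tyrobp stayed first for Fcer1g under each setting tried, and the lists held to different degrees. All 3 genes remained for Fcgr3 without M1, M2 or M5, for Fcgrt without M1, and for Fcgr1 and Fcer1g without M5. Without M6, 0 of the 3 genes remained for Fcgr1, Fcgr4 and Fcgrt, without M1 0 for Fcgr4, without M2 0 for Fcgrt, and with log2(CPM + 10) 1 or 2 of 3 remained for each member. Among the members, r was highest for Fcgr3 with Fcer1g (0.91) and for Fcgr1 with Fcgr4 (0.90), and Fcgrt with the other 5 gave 0.18 to 0.42.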

How the data were processed

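Leukocyte-enriched cells of CT26 tumors were profiled with 10x 3' chemistry (v3). Per the paper's methods and the submitters' processing notes, the UMI counts deposited by the authors were made with Cell Ranger 3.0.2 on mm10 (GRCm38), cells with more than 500 UMIs were kept, and labels were given by correlation with ImmGen profiles. No step against free RNA or doublets is named. The deposited counts are raw whole numbers for 31053 genes, and no column was left unused.

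No library name could be matched to a sample, so the comparison between treatments was not run and every value is given per library (M1, M2, M5, M6) or over all libraries. Gene positions came from GENCODE M21 and promoter sequences from RefSeq on GRCm38.p6. The members and gene lists were chosen with earlier results of these data known. Named genes were the 6 members, the 3 genes most like each, the signaling genes the text turns on, up to 3 further ones per role by level, and the genes used to form groups. One gene that this rule names is not reported here.

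Levels are summed UMIs as CPM, with exact 95% Poisson intervals. Shares of cells and all groups formed by marker UMIs used cells thinned without replacement to 2000 UMIs (seed 1), with exact 95% binomial intervals; a count of 0 was taken to allow up to 3 counts. The thinning and the summing were tested on simulated data. Labels under 100 cells were left out of orders, and sums under 20 cells were left out of likeness. Doublets were scored with scrublet in scanpy 1.11.5 at an expected rate of 0.06. Its automatic threshold marked none of the 7160 cells of M5, so a score of 0.25 was used, which 606 cells (1.78%) passed, and these cells were kept in the values given. Tables were handled with pandas 2.3.3 and numpy 2.4.6, and intervals came from scipy 1.17.1 (Python 3.11.15). Alternatives were other thinning depths, leaving out high doublet scores or cells over 10% mitochondrial UMIs, weighting cells equally, other group limits and leaving out each library. The splits of Stroma, of ILC and of T cells, the C1q-zero cells outside the other groups, the co-detection without the protease group and the promoter word were chosen after seeing the data.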

Additional observations from a re-analysis of the deposited data

How the results depend on the processing

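Of 33 results, 117 recalculations under another setting left 54 within the counting interval of the reported value and 63 outside it, and of 132 that left out 1 library 45 fell outside. The number of members highest in Myeloid in every library stayed at 5 without high doublet scores, without cells over 10% mitochondrial UMIs and without each library, the settings under which it was recalculated. Shares of cells depend on depth: NK cells with an Fcgr3 UMI were 7.19% at 1000 UMIs, 23.8% at 4000 and 35.5% without thinning, against 14.2%, and 13.2% to 14.9% without 1 library. Fcgr3 in Myeloid, 450 CPM, was 485 without high doublet scores, 464 without cells over 10% mitochondrial UMIs, 498 as the mean of the cells' own CPM and 484 in thinned sums (436 to 464 without 1 library). Fcer1g in NK cells, 1125 CPM, was 1166, 1104, 1367 and 1365 in the same order (1101 to 1167). The share of Fcgr2b in Myeloid receptor UMIs ranged from 22.1% to 24.8% without 1 library. The fold of C1q-high over C1q-zero cells for Fcgr1, 1.31, was 1.505 with C1q-high from 6 UMIs, 1.53 against C1q-zero cells outside the other groups and 1.21 to 1.38 without 1 library, and that of Fcgrt, 2.44, was 1.41 against those cells and 2.24 to 2.67. Fcer1g in T cell EFF without macrophage UMIs, 183 CPM, was 163 without thinning (168 to 209 without 1 library), and Fcgr3 in such NK cells, 79.3 CPM, ranged from 70.6 to 84.6. The causes were not tested.

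Of 240 levels recalculated without 1 library, 8 moved by over 1.5 times. Those not given above were Fcgr3 in the label T cells (10.3 CPM, 6.34 without M6), Fcgr4 there (5.99 CPM, 0 without M5 and 11.1 without M6), and in B cells Fcgr3 (4.52 CPM, 0 without M6), Fcgr4 (6.78 CPM, 3.18 without M1) and Fcgrt (6.78 CPM, 3.03 without M6). B cells and the label T cells held few UMIs, which limits every value in them. No paired analysis was possible because the libraries in the count table could not be matched to samples, so the comparison between treatments, with its count models, filters, normalizations and left-out replicates, was not run.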
